A study of Mus musculus with 12 samples.

Results

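Serpins are a superfamily of proteins, most of which trap and inactivate serine proteases. The 8 serpin genes described here, Serpina3n, Serpina3g, Serpinb2, Serpinb6a, Serpinb9, Serpine2, Serpinf1 and Serpinh1, were selected by symbol from a table of 54532 mouse genes, in which 68 genes carry a Serpin name. An inhibitory serpin offers the protease an exposed loop as bait, and once the loop is cut the serpin changes shape and holds the enzyme in a covalent complex. In the brain, serpins made by astrocytes and other cells act on thrombin and the plasminogen activators outside cells, and on granule and lysosomal proteases inside them. The name does not describe all 8: Serpinf1 (pigment epithelium-derived factor) and Serpinh1 (the collagen chaperone HSP47) have the serpin fold and are known not to inhibit proteases.

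The study sequenced RNA from cultured adult astrocytes, the main supporting cells of the brain, in 12 libraries of 6 groups, 2 libraries each. All mice were C57BL/6, the tissue was cortex with hippocampus, and the labels describe no sorting of the cells. The Ogt experiment used 4-month-old mice: Ogt cKO libraries, from a conditional knockout of the O-GlcNAc transferase gene, were compared with cKO control libraries. The genotype entry, Glast-CreERT2::Ogtfloxp/Y, is the same for both groups, so only the sample descriptions tell them apart. Glast-CreERT2 is a tamoxifen-dependent recombinase expressed in astrocytes and related glia, and no tamoxifen is mentioned. The AD experiment compared untreated cells of the 5X APP mouse model of Alzheimer's disease with wild-type cells, at 6 months of age by the sample labels and 5 months by the series text. The Aβ experiment compared wild-type cells of 2-month-old mice given 20 µM amyloid-beta 1-42 (Aβ) with untreated ones. The exposure lasted 72 hours, though the label of 1 sample says 73. Nothing in the labels says that the 2 libraries of a group came from different animals or cultures, so the p-values measure only the spread between these samples, which may be technical.

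Levels are FPKM, which corrects the count of fragments for the length of the gene and the size of the library, and 16418852 to 18705309 reads per library lay behind them. Ogt itself, the targeted gene, was at 20.8 and 24.7 FPKM in the cKO control libraries and at 11.04 and 12.03 in the Ogt cKO (log2 change -0.92, adjusted p = 0.038), but also at 7.85 and 10.4 in the Aβ control. The libraries held transcripts of other cells than astrocytes. Summed over 12 astrocyte markers, levels were 541 to 624 FPKM in the cKO control, 107 to 122 in the Ogt cKO, 472 to 660 in the AD control, 247 to 275 in the AD model, 125 to 133 in the Aβ control and 86.7 to 179 in the Aβ-treated cells. The sum of 12 microglia and macrophage markers was higher than that in all 12 libraries, from 1043 to 9079 FPKM. In such bulk samples, fewer cells of a type and less RNA per cell cannot be told apart.

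All 8 serpin genes passed the filter of at least 1 FPKM in at least 2 libraries, as did 14014 genes in all. In the Ogt cKO, 5 of the 8 rose and none fell, where 42.3% of all genes tested were called (22.6% higher and 19.8% lower; adjusted p under 0.05, limma on log2(FPKM + 1)). With levels rescaled to total reads, 35.3% of all calls in the Ogt cKO were upward, in place of 53.3%. In the AD model 1 rose and none fell, where 17.1% of all genes were called (9.8% higher and 7.27% lower). In the Aβ-treated cells 2 rose and 1 fell, against 35.9% of all genes (20.8% higher and 15.1% lower). The median log2 change of the 8 was 1.33 in the Ogt cKO, -0.03 in the AD model and 0.20 in the Aβ-treated cells, beside medians over all genes of -0.00, -0.02 and -0.04. Serpina3g was the one gene of the 8 called in all 3 experiments, and it passed the filter through the libraries in which it was high.

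**Figure D1:**
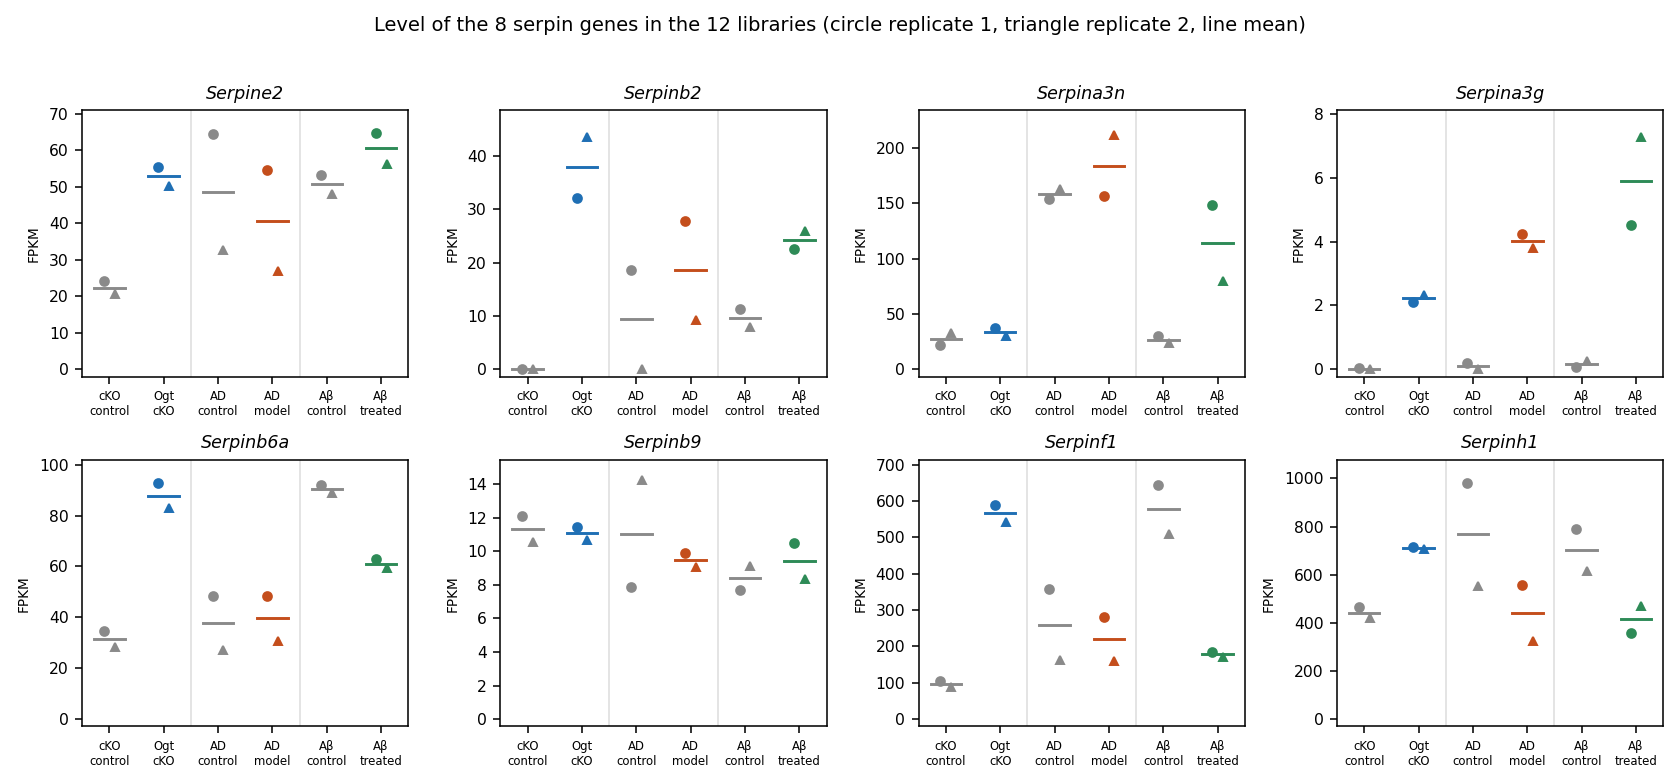
Level of each of the 8 serpin genes (FPKM, linear axes that include 0) in the 2 libraries of the 6 groups, with the group mean as a line; control groups are grey. Serpinf1 lay at 89.5 and 103.8 FPKM in the cKO control and above 500 in both Ogt cKO and both Aβ control libraries, while Serpinb9 stayed between 7.70 and 14.2 in all 12.

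Serpine2 and Serpinb2 encode inhibitors of the plasminogen activators. Serpine2 (protease nexin-1, ENSMUSG00000026249, chr1:79794197-79861180, minus strand, mm10) is secreted by glia and inhibits thrombin as well as urokinase and tissue plasminogen activator. It was at 24.3 and 20.5 FPKM in the cKO control and at 55.4 and 50.4 in the Ogt cKO. Both knockout libraries lay above both controls, and the gene rose by 1.21 ± 0.35 on the log2 scale (SE, n = 2 per group, adjusted p = 0.024). That call was lost without any 1 of the 4 libraries compared: the adjusted p was 0.067 without cKO control replicate 1, 0.124 without replicate 2, 0.11 without Ogt cKO replicate 1 and 0.079 without replicate 2. In the AD experiment Serpine2 was at 64.5 and 32.8 FPKM in the control and at 54.6 and 26.9 in the model, so the 2 libraries of a group differed more than the groups did. In the Aβ experiment it was at 53.2 and 48.2 FPKM in the control and at 64.8 and 56.3 after Aβ (log2 change 0.25 ± 0.35, adjusted p = 0.60).

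Serpinb2 (plasminogen activator inhibitor 2, ENSMUSG00000062345, chr1:107511423-107535478, plus strand) inhibits urokinase and is known for its strong induction in inflamed macrophages and fibroblasts. Its group means spanned the widest ratio of the 8, 497 between the cKO control and the Ogt cKO. The cKO control libraries held 4 and 3 reads of it, 0.0904 and 0.0619 FPKM, whereas the Ogt cKO held 1184 and 1645 reads, 32.0 and 43.7 FPKM. The gene rose by 5.16 ± 1.05 on the log2(FPKM + 1) scale (adjusted p = 0.0065), and the ratio of pooled reads was 502 (95% interval 243 to 1250, counting error only). With so few control reads the fitted change depends on the added constant: it was 7.74 with 0.1 added in place of 1. Markers of mesothelium and keratinocytes moved with it in the Ogt experiment, where 2 of 3 tested rose. The sum of 10 was 6.92 to 9.66 FPKM in the cKO control and 174 to 188 in the Ogt cKO. That sum was mostly Krt19 and Msln, with Wt1 and Krt14 at or near 0. After Aβ 2 of the 3 fell, with sums of 138 to 230 FPKM in the control and 28.6 to 32.5 in the treated cells. Serpinb2 was higher in both of those treated libraries than in their controls. In the AD model none of the 3 was called (sums of 21.5 to 54.1 in the control and 18.5 to 26.9 in the model). Other marker lists moved too. In the Ogt cKO 7 of 10 endothelial, 6 of 9 pericyte and smooth muscle and 2 of 8 fibroblast markers rose. There 5 of 12 microglia and macrophage markers and 8 of 11 astrocyte markers fell. After Aβ 7 of the 10 endothelial markers rose, and of the microglia and macrophage markers 4 rose and 2 fell. Pericyte and smooth muscle (8 of 9) and fibroblast markers (5 of 8, 1 rose) fell. The part of all these markers in the Serpinb2 result was not tested.

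The control groups were far apart in Serpinb2. AD control replicate 1 was at 18.6 FPKM and replicate 2 at 0.152, while the Aβ control libraries were at 11.3 and 7.99. The AD model stood at 27.9 and 9.29 FPKM, on both sides of AD control replicate 1, with a log2 change of 1.86 ± 1.05 (adjusted p = 0.29). Without AD control replicate 1 the change became 3.90 (adjusted p = 0.0025), and without replicate 2 it became -0.19. In the Aβ-treated cells Serpinb2 was at 22.6 and 26.0 FPKM, above both controls, but the change of 1.26 ± 1.05 was not called over the spread shared by the 12 libraries (adjusted p = 0.37). Without either of the AD control libraries, whose spread that fit includes, the same 1.26 had an adjusted p of 0.042.

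The promoter of Serpinb2 is shown because the gene had almost no reads in the cKO control and 1184 and 1645 in the Ogt cKO. The sequence is RefSeq's for GRCm38.p6, chr1:107511173-107511452, plus strand, from 250 bases before the annotated start to 30 after it. Capitals mark matches to 3 of the motifs searched on both strands. The AP-1 motif was searched as TGANTCA, with any base allowed in the middle, and matches at -94 as TGAATCA. The TATA box, spelled TATAAA, matches at -29. The motif of STAT factors, spelled TTCNNNGAA, matches at 11, counted from the start.
Serpinb2: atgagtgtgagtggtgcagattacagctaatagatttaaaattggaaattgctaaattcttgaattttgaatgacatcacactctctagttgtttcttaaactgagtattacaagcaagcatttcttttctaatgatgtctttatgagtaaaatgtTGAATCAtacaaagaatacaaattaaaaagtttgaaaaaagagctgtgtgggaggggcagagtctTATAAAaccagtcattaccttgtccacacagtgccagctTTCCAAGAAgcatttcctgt
Of 32851 RefSeq promoter windows of 300 bases, 7.81% hold the AP-1 letters, 13.6% the TATA letters and 8.3% the STAT letters. RefSeq has another start for Serpinb2 further downstream, whose window overlaps this one and holds the same 3 matches. A match is a description of the letters only.

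The targets and partners of these inhibitors were in part present and in part not measurable. The plasminogen activators Plau (urokinase) and Plat (tissue plasminogen activator) ranged over the 12 libraries from 7.99 to 98.6 and from 12.02 to 52.2 FPKM, and the thrombin receptor F2r from 17.5 to 66.9; these 3 were picked after their values were seen. Plasminogen itself (Plg) had 1 read in all 12 libraries together and prothrombin (F2) had 8. Plau was at 11.5 and 7.99 FPKM in the cKO control and at 53.5 and 51.4 in the Ogt cKO (log2 change 2.33, adjusted p = 0.045), while Plat went the other way, from 40.3 and 52.2 to 19.2 and 21.1 (-1.15, adjusted p = 0.0070). Neither was called in the AD or the Aβ experiment.

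Of 20 listed genes of plasminogen activation and thrombin signalling, 15 were tested. In the Ogt cKO 9 of them rose and 1 fell, where 22.6% and 19.8% of all genes tested did. Their median log2 change was 1.08. Plaur, the urokinase receptor, rose from 3.95 and 3.74 FPKM to 88.1 and 84.0, and the plasminogen-binding pair Anxa2 and S100a10 rose by 1.59 and 1.82 on the log2 scale. In the AD model 2 rose and none fell (median -0.31), and in the Aβ-treated cells 2 rose and 3 fell (median -0.15). The shares of all genes rising and falling were 9.8% and 7.27% in the AD model and 20.8% and 15.1% after Aβ. Procr, the endothelial protein C receptor, was among the rising genes in every experiment and went from 25.4 and 19.2 to 190.7 and 224.7 FPKM after Aβ. Of 10 endothelial markers 7 rose after Aβ, with sums of 269 to 331 FPKM in the control and 766 to 1071 in the treated cells. The same number rose in the Ogt cKO, from 42.9 to 52.8 up to 269 to 281, and Procr rose there from 3.32 and 2.55 to 27.2 and 21.9. In the AD model, where Procr rose from 9.42 and 3.28 to 58.2 and 18.1, none of the 10 was called. Their part in the Procr result was not tested.

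Serpina3n and Serpina3g come from a cluster of near relatives on chromosome 12. Serpina3n (ENSMUSG00000021091, chr12:104406729-104414329, plus strand) is a mouse counterpart of human alpha-1-antichymotrypsin, a secreted inhibitor known as a marker of reactive astrocytes. It was at 29.8 and 24.1 FPKM in the Aβ control and at 148.8 and 80.1 after Aβ. Both treated libraries lay above both controls, the ratio of mean levels was 4.25, and the gene rose by 1.99 ± 0.30 on the log2 scale (adjusted p = 0.0014). In the Ogt experiment the libraries overlapped, at 22.1 and 32.8 FPKM in the control and 37.6 and 30.4 in the knockout (0.32 ± 0.30, adjusted p = 0.42). The AD groups overlapped as well, at a high level in both: 153.8 and 162.7 FPKM in the wild-type control and 156.3 and 211.3 in the model. The wild-type AD control thus held more Serpina3n than either Aβ-treated library, in cells from older mice and another experiment.

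Serpina3g (Spi2A, ENSMUSG00000041481, chr12:104236245-104241939, plus strand) is an intracellular serpin known to restrain lysosomal cathepsins and to be induced through NF-kB. It was nearly absent from all 6 control libraries, with 0 to 10 reads each, and present in all 6 others, with 70 to 274. In FPKM the Ogt cKO libraries stood at 2.11 and 2.34, the AD model at 4.25 and 3.81 and the Aβ-treated cells at 4.52 and 7.29, while no control exceeded 0.273. The gene rose by 1.65 ± 0.20 in the Ogt cKO (adjusted p = 0.0012), by 2.18 ± 0.20 in the AD model (1.8e-04) and by 2.52 ± 0.20 after Aβ (4.9e-05). Because the levels are near the added 1 these log2 values understate the change. The ratio of pooled reads was 92.6 in the Ogt cKO (149 reads against 2, 95% interval 25.2 to 771), 38.3 in the AD model (304 against 8, 19.2 to 89.5) and 33.0 after Aβ (435 against 13, 19.1 to 62.4), intervals that cover counting error only and overlap one another.

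Some reads of these genes may belong to relatives. Of all 50-base windows in the annotated transcripts of Serpina3g, 15.5% also occur in another gene, most often Serpina3h, and for Serpina3n 6.90% do, most often in the pseudogene Serpina3e-ps. At 100 bases the shares were 3.49% and 0.204%. Serpina3h had 0 or 1 read in each control library and 4 to 28 in the others, and Serpina3e-ps had 1 read in all. How reads that match several genes were assigned is not given in the sources used here. Serpinb2 shares 10.4% of its 50-base windows, mostly with Serpinb10, and the other 5 share under 1% each.

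**Figure D2:**
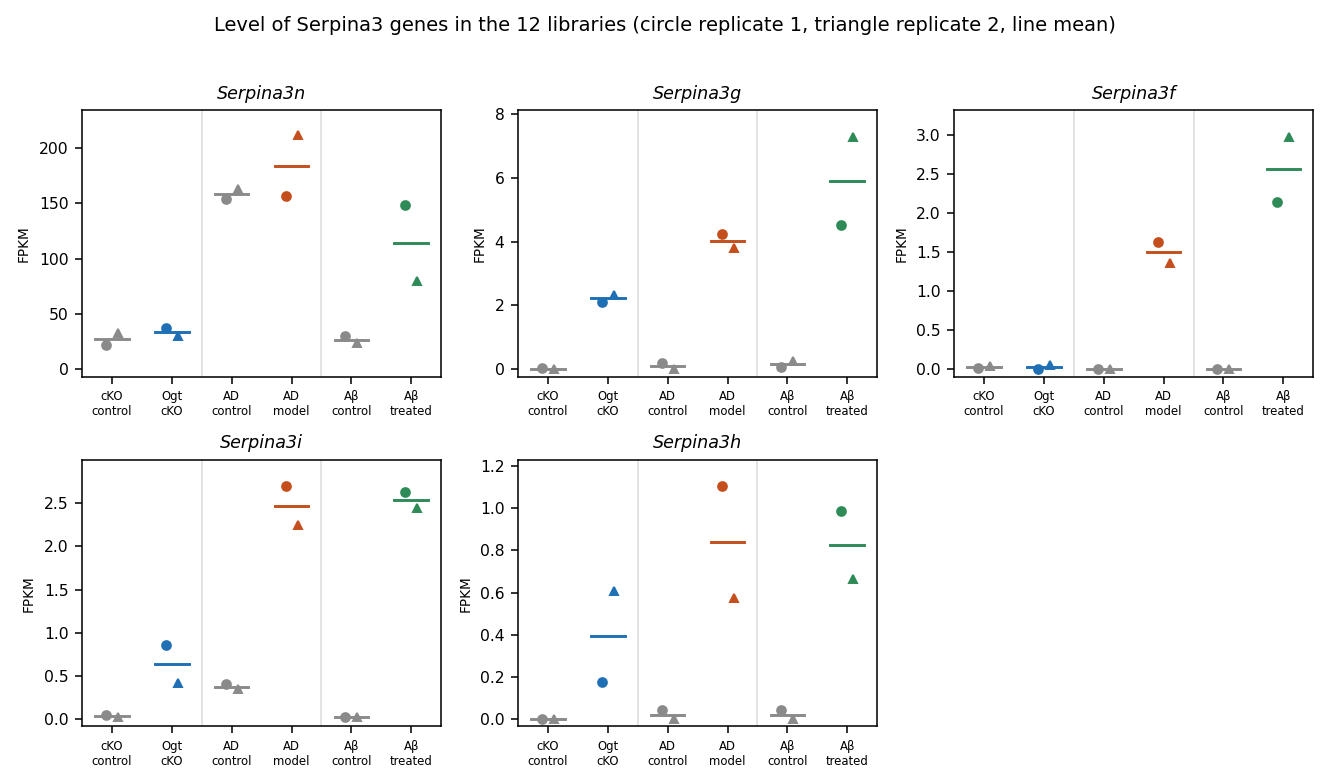
Level of 5 Serpina3 genes (FPKM, linear axes that include 0) in the 2 libraries of the 6 groups, with the group mean as a line. Serpina3g, Serpina3i and Serpina3h are near 0 in the grey cKO and Aβ control libraries and higher in all 3 coloured groups, Serpina3f is above 1 FPKM in the AD model and Aβ-treated libraries alone, and Serpina3n is as high in the AD control as in the AD model.

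Serpina3f and Serpina3i are neighbours of Serpina3g. Serpina3f had no read in the 4 AD and Aβ control libraries and was at 1.63 and 1.37 FPKM in the AD model and at 2.14 and 2.98 after Aβ. It had 0 to 2 reads in each library of the Ogt experiment. Serpina3i rose from 0.408 and 0.343 FPKM to 2.70 and 2.25 in the AD model, and from 0.0266 and 0.0259 to 2.63 and 2.44 after Aβ. Serpina3i also rose in the Ogt cKO, from 0.0477 and 0.0218 to 0.858 and 0.420 (log2 change 0.65, adjusted p = 0.012). All of these are low levels, and both genes passed the filter through the libraries in which they are high.

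Promoters of the pair are shown because Serpina3g was called in all 3 experiments and Serpina3n in 1. Both are RefSeq sequences of GRCm38.p6 on the plus strand, from 250 bases before the start to 30 after it, at chr12:104406458-104406737 and chr12:104235897-104236176. The gene starts in the deposited table lie 21 and 98 bases downstream of the RefSeq starts. In Serpina3g, capitals mark an NF-kB match, GGGGGTTTCC, at -85 and a STAT match, TTCCCAGAA, at -33. In Serpina3n, capitals mark the stretches that align with these.
Serpina3n: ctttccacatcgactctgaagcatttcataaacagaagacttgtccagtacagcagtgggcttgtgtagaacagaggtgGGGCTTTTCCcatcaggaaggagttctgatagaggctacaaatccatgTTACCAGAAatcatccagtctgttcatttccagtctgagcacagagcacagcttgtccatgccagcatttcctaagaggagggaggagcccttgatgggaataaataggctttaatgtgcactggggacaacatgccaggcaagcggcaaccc
Serpina3g: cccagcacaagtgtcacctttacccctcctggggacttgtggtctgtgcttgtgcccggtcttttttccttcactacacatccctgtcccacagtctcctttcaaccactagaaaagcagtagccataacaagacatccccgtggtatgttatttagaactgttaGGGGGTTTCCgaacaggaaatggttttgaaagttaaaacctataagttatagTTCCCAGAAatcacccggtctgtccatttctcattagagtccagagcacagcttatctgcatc
In a pairwise alignment 150 of 205 aligned bases were identical (73.2%), and the longest shared run was 13 bases. The Serpina3n stretch aligned to the STAT match reads ttAccagaa, at -123, with 8 of 9 bases identical and the differing one in capitals. That aligned to the NF-kB match reads gggCTtttcc, at -171, with 8 of 10 identical. Serpina3n held none of the 7 motifs searched in its 300-base window, which says only that these letters are not there. Of all promoter windows 8.3% hold the STAT letters and 4.51% the NF-kB motif. Other genes of the 8 also held matches in their 300-base windows. Serpinb6a, called only in the Ogt cKO, held STAT matches at -77 and 21. Serpinh1, called in no experiment in the fit of all 12 libraries, held an NF-kB match at -110. Serpinb9, also called in none, held another of the 7 motifs at -46, and Serpinb6a held that motif at -84. Whether any match bears on expression was not tested.

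Genes listed as inflammatory inputs to serpin expression were called mostly upward. Of 26 tested, 10 rose and 4 fell in the Ogt cKO, 12 rose and none fell in the AD model, and 16 rose and none fell after Aβ (medians 0.22, 0.81 and 1.25). Beside these, 22.6%, 9.8% and 20.8% of all genes tested rose, and 19.8%, 7.27% and 15.1% fell. Il1b, an inflammatory cytokine, rose from 0.473 and 0.153 FPKM to 60.8 and 48.9 in the Ogt cKO and from 1.15 and 0.392 to 27.5 and 27.7 after Aβ. Tnfrsf1b, a receptor of tumour necrosis factor, rose from 11.8 and 9.49 to 76.0 and 170.1 in the AD model and from 13.8 and 14.1 to 111.3 and 95.3 after Aβ. Nfkbia, an inhibitor of NF-kB that NF-kB itself induces, rose from 23.7 and 20.2 to 159.7 and 174.7 in the Ogt cKO.

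Serpina3n belongs to the set of genes described as shared by all reactive astrocytes, and 11 others of that set were tested. In the Ogt cKO 6 rose and 1 fell, in the AD model 4 rose and 1 fell, and after Aβ 5 rose and 2 fell. Across all genes tested, 22.6%, 9.8% and 20.8% rose in these experiments and 19.8%, 7.27% and 15.1% fell. Lcn2, a secreted iron-siderophore carrier, rose from 2.87 and 2.62 to 26.7 and 17.8 FPKM in the Ogt cKO, from 15.7 and 11.2 to 258.8 and 534.6 in the AD model and from 16.4 and 13.3 to 376.7 and 407.4 after Aβ. Gfap, the astrocyte filament gene, was the one that fell in the Ogt cKO, from 267 and 298 FPKM to 48.0 and 55.3 (log2 change -2.43, adjusted p = 0.0025). The small heat shock gene Hspb1 was the one that fell in the AD model, and the protease inhibitor gene Timp1 and the hyaluronan receptor gene Cd44 were those that fell after Aβ. Gfap, Hspb1, and Timp1 and Cd44 after Aβ are named here after their values were seen. The order of Lcn2 levels across the experiments was unlike that of Serpina3n, which was high in the AD control where Lcn2 was low. Microglia and macrophage markers moved with the amyloid groups: 8 of 12 rose in the AD model (sum 1043 to 1592 FPKM in the control, 3362 to 5778 in the model), and 4 rose and 2 fell after Aβ (2230 to 3716 and 4593 to 6131). In the Ogt cKO, where Serpina3g also rose, 5 of the 12 fell (7064 to 9079 and 3052 to 4062). Their part in these results was not tested.

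Serpinb6a and Serpinb9 are intracellular inhibitors that protect cells from their own or released granule proteases. Serpinb6a (ENSMUSG00000060147, chr13:33917918-34002794, minus strand), whose human counterpart inhibits cathepsin G, was at 34.6 and 28.3 FPKM in the cKO control and at 92.8 and 82.8 in the Ogt cKO. It rose by 1.46 ± 0.28 on the log2 scale (adjusted p = 0.0052). After Aβ it was at 62.8 and 59.4 FPKM, below both Aβ controls at 92.1 and 88.8, and this change of -0.56 ± 0.28 was not called (adjusted p = 0.14). In a fit of the 4 Aβ libraries alone, which were tight, it was called (adjusted p = 0.014). In the AD experiment replicate 1 was the higher library in both groups, at 48.4 and 27.1 FPKM in the control and 48.6 and 30.5 in the model, and the difference between groups was 0.09 ± 0.28.

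Serpinb9 (ENSMUSG00000045827, chr13:33003250-33017957, plus strand), an inhibitor of granzyme B, varied least of the 8. Its group means ran from 8.42 FPKM in the Aβ control to 11.3 in the cKO control, a ratio of 1.34, and each group overlapped the next in that order. Its log2 changes were -0.03, -0.15 and 0.15 in the Ogt cKO, the AD model and the Aβ-treated cells, and none was called (adjusted p = 0.93, 0.73 and 0.65).

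The proteases given above as targets, granzyme B and cathepsin G, were hardly detected. Over all 12 libraries granzyme B (Gzmb) had 4 reads and cathepsin G (Ctsg) 2. Among other listed granule proteases neutrophil elastase (Elane) had 4 and granzyme A (Gzma) none, while granzyme M (Gzmm) had 222, at up to 1.05 FPKM. Of 23 granule and lysosomal proteases listed, 12 were below the filter. Among the 11 tested, 2 rose and 3 fell in the Ogt cKO, 5 rose and 3 fell in the AD model and 5 rose and 2 fell after Aβ (medians -0.33, 1.35 and 0.61). Calls in either direction took in 42.3%, 17.1% and 35.9% of all genes tested. Microglia and macrophage markers moved as well: of 12, 5 fell in the Ogt cKO, 8 rose in the AD model, and 4 rose and 2 fell after Aβ, with the sums given above. Their part in the protease levels was not tested. The lysosomal cysteine protease Ctsb ranged from 284 to 1390 FPKM. It fell in the Ogt cKO, from 1302 and 1190 to 420.3 and 353.7, whereas Ctss, a cathepsin of microglia and macrophages, rose from 67.8 and 52.5 to 350.0 and 474.4 in the AD model. Mcpt8, a basophil and mast cell protease, went from 0.106 and 0 FPKM in the cKO control to 21.7 and 21.7 in the Ogt cKO, while the other listed mast cell proteases Cma1, Cpa3, Mcpt4 and Tpsb2 had 9 reads or fewer each in all 12 libraries.

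Serpinf1 (pigment epithelium-derived factor, ENSMUSG00000000753, chr11:75409769-75422701, minus strand) is a secreted factor known for supporting neurons and for restraining the growth of blood vessels. It was at 103.8 and 89.5 FPKM in the cKO control and at 588.6 and 542.3 in the Ogt cKO. The ratio of mean levels was 5.85, and the gene rose by 2.54 ± 0.37 on the log2 scale (adjusted p = 0.0022). After Aβ it fell, from 644.6 and 508.4 FPKM to 183.8 and 172.0, by 1.68 ± 0.37 on the log2 scale (adjusted p = 0.0076); without Aβ control replicate 1 the change was -1.51 and the adjusted p 0.062. The AD libraries spread over 358.3 and 161.5 FPKM in the control and 282.0 and 161.1 in the model, with no called difference (-0.17 ± 0.37). Among the receptors and angiogenic partners listed with it, 4 of 10 rose and 3 fell in the Ogt cKO, 1 rose in the AD model and 5 rose after Aβ. The shares of all genes rising were 22.6%, 9.8% and 20.8%, and 19.8% fell in the Ogt cKO. Vegfa, the growth factor Serpinf1 is known to oppose, rose from 14.1 and 9.91 to 59.6 and 74.9 FPKM in the Ogt cKO, and Hif1a rose from 6.80 and 9.88 to 45.3 and 52.1 after Aβ.

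Pericyte and smooth muscle markers moved in the same direction as Serpinf1. Of the 9 tested 6 rose in the Ogt cKO, with sums of 525 to 1058 FPKM in the control and 4693 to 4814 in the knockout. After Aβ 8 of 9 fell, from 4173 to 4652 down to 444 to 505. In the AD model 7 of 9 fell, from 1798 to 4316 down to 214 to 799, where no change of Serpinf1 was called. Beside these, 22.6% of all genes tested rose in the Ogt cKO, 15.1% fell after Aβ and 7.27% fell in the AD model. The sums are mostly Acta2, and the pericyte marker Kcnj8 was at or near 0 in every library. Their part in the Serpinf1 result was not tested.

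**Figure D3:**
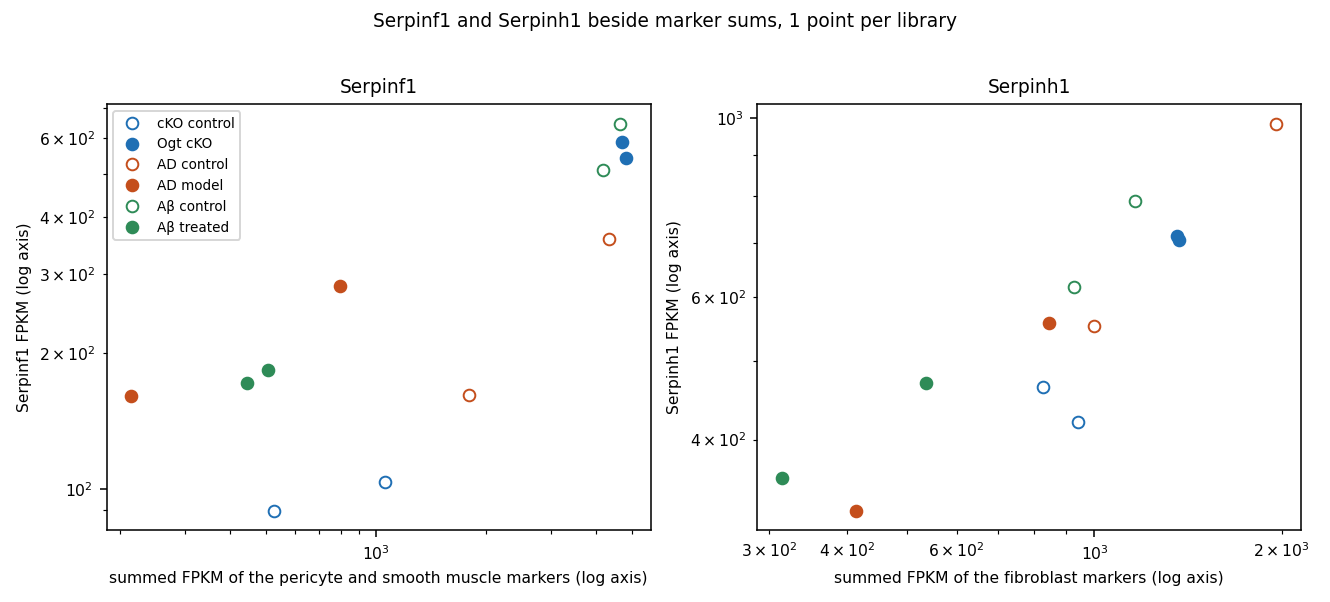
Level of Serpinf1 (left) against the summed FPKM of 10 pericyte and smooth muscle markers, and of Serpinh1 (right) against that of 10 fibroblast markers, 1 point per library on log axes, with open symbols for controls. The highest Serpinf1 levels, in the Ogt cKO and Aβ control libraries, go with marker sums of 4173 or more, though AD control replicate 1, at 4316, has 358.3 FPKM of Serpinf1; AD control replicate 1 is highest in both Serpinh1 and the fibroblast sum.

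Serpinh1 (HSP47, ENSMUSG00000070436, chr7:99345376-99353239, minus strand) binds procollagen in the endoplasmic reticulum. It had the highest level of the 8 in each of the 12 libraries, and its lowest value was 326 FPKM. Its libraries did not overlap in the Ogt experiment, at 464.2 and 420.9 in the control and 714.3 and 706.7 in the knockout, but the change of 0.68 ± 0.33 was not called (adjusted p = 0.12). After Aβ both libraries, at 359.1 and 470.1 FPKM, lay below the controls at 788.5 and 616.9 (-0.76 ± 0.33, adjusted p = 0.098). In the AD experiment it was at 983.1 and 553.1 in the control and at 556.8 and 326.4 in the model (-0.79 ± 0.33, adjusted p = 0.14). Fitted on the 4 libraries of an experiment alone, the change was called in the Ogt cKO (adjusted p = 0.0054) and after Aβ (0.037). Under quantile normalization the change in the Ogt cKO was 0.10 (adjusted p = 0.78). Without AD control replicate 2 the AD change was -1.20 (adjusted p = 0.041).

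Collagens and collagen-folding enzymes are the setting in which Serpinh1 works. Of 30 listed, all tested, 13 rose and 1 fell in the Ogt cKO, 18 fell and none rose in the AD model, and 21 fell and 1 rose after Aβ, with median log2 changes of 0.37, -0.82 and -0.79. Serpinh1's own changes, at 0.68, -0.79 and -0.76, had the same signs. Across all genes tested, 22.6%, 9.8% and 20.8% rose in the 3 experiments and 19.8%, 7.27% and 15.1% fell. Fkbp10, a collagen prolyl isomerase, rose from 40.4 and 37.5 to 168.0 and 159.1 FPKM in the Ogt cKO. P3h4, of the collagen prolyl hydroxylase complex, rose there from 48.9 and 48.5 to 118.4 and 112.2 and fell after Aβ from 122.9 and 133.8 to 30.1 and 39.3. Col4a1, a basement membrane collagen, fell from 852.8 and 602.3 to 267.0 and 221.4 in the AD model. The sum of fibroblast markers, some of them collagens of this list, was 826 to 942 FPKM in the cKO control and 1360 to 1366 in the Ogt cKO. Of 8 tested 2 rose there, where 22.6% of all genes tested rose. In the AD model 5 fell, beside 7.27% of all genes (sums of 997 to 1962 in the control and 414 to 845 in the model). After Aβ 5 fell and 1 rose, beside 15.1% and 20.8% of all genes (925 to 1163 and 314 to 535). The part of these markers in the collagen and Serpinh1 results was not tested.

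Serpinh1 is also known as a heat shock gene. Of 16 heat shock genes 5 rose and none fell in the Ogt cKO, 2 fell in the AD model, and 3 rose and 4 fell after Aβ (medians 0.24, -0.12 and -0.28). Calls in either direction took in 42.3%, 17.1% and 35.9% of all genes tested, so these counts do not set heat shock genes apart. Hspb1, a small heat shock protein, rose from 148.8 and 74.7 to 483.4 and 460.5 FPKM in the Ogt cKO and fell from 457.1 and 319.5 to 188.0 and 132.8 in the AD model. After Aβ the group split: Cryab, another small heat shock protein, fell from 499.8 and 541.7 to 118.8 and 80.5, and Hsp90aa1 rose from 42.5 and 70.9 to 154.4 and 146.5.

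**Figure D4:**
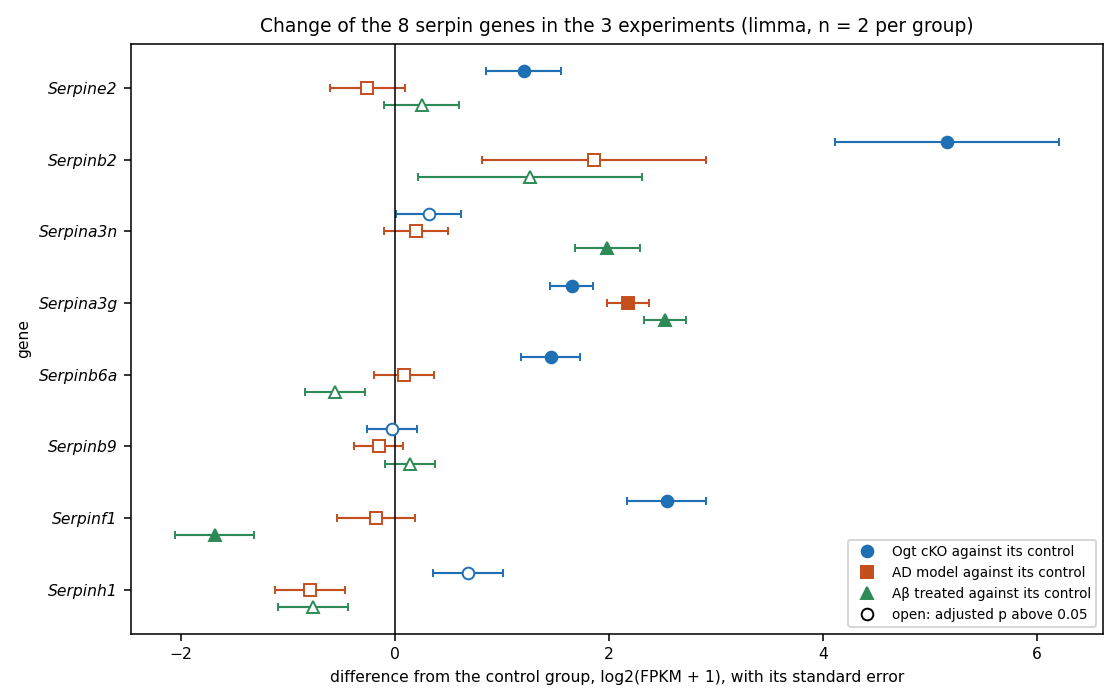
Difference from the control group on the log2(FPKM + 1) scale, with its standard error, for each of the 8 serpin genes in the 3 experiments (limma, 2 libraries per group). Filled symbols have an adjusted p under 0.05. Serpinf1 is called upward in the Ogt cKO (2.54) and downward after Aβ (-1.68), and Serpina3g is the gene with 3 filled symbols.

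The 3 experiments have separate controls, and the differences between their effects were tested in the same fit. Between the Ogt cKO and the AD model 3 of the 8 differed, all with the higher effect in the Ogt cKO, where 25.6% of all genes did (13.7% higher and 11.9% lower). Between the Ogt cKO and Aβ 5 of the 8 differed, 3 higher and 2 lower in the Ogt cKO, against 52.3% of all genes (25.7% higher and 26.6% lower). One of the 2 lower ones, Serpina3g, depends on the added constant: its difference was -0.87 with 1 added (adjusted p = 0.029) and -0.23 with 0.1 added (0.80), and it was 1.30 with voom on the reads. Between the AD model and Aβ 1 of the 8 differed, lower in the AD model, against 6.14% (1.52% higher and 4.62% lower). The effect on Serpinf1 was higher in the Ogt cKO than after Aβ by 4.22 (adjusted p = 4.5e-04) and higher than in the AD model by 2.71 (0.0079). The effect on Serpinb6a was higher in the Ogt cKO than after Aβ by 2.01 (0.0032). That on Serpina3n was lower in the Ogt cKO than after Aβ, by -1.67 (0.011). These 4 differences were called without each of the 12 libraries in turn.

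Among the other 60 genes with a Serpin name, 12 passed the filter. Of these 9 rose and 1 fell in the Ogt cKO, 3 rose in the AD model, and 2 rose and 2 fell after Aβ. The shares of all genes rising were 22.6%, 9.8% and 20.8%, and those falling 19.8%, 7.27% and 15.1%. Serpinb9b and Serpinb6b, relatives of Serpinb9 and Serpinb6a on chromosome 13, rose in the Ogt cKO from 1.46 and 0.622 to 72.9 and 62.6 and from 5.28 and 2.46 to 59.0 and 42.9. After Aβ Serpinb9b fell, from 71.9 and 99.9 to 11.6 and 7.45, and in the AD model it was not called (-0.04, adjusted p = 0.98). Serpinb9 was called in none of the 3. Serping1, the C1 inhibitor of the complement cascade, rose from 10.4 and 4.86 to 25.7 and 22.5 in the AD model. Serpind1 (heparin cofactor II, a thrombin inhibitor) fell in the Ogt cKO from 2.88 and 1.88 to 0.0870 and 0.0569.

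Across the 6 groups the order of levels differed from gene to gene. The cKO control was the lowest group for Serpinf1, Serpine2, Serpinb2, Serpinb6a and Serpina3g, though for Serpina3g and Serpinb6a it overlapped the next. For Serpinf1 the Aβ control and the Ogt cKO were highest and overlapped (means 576 and 565 FPKM), followed by the AD control, the AD model and the Aβ-treated cells, with the cKO control apart at 96.7. For Serpinb6a the same pair of groups was highest and overlapped. Serpina3n was highest in the 2 AD groups, which overlapped, then in the Aβ-treated cells, which were apart from the remaining 3. In the AD groups replicate 1 was above replicate 2 in both control and model for 6 of the 8.

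**Figure D5:**
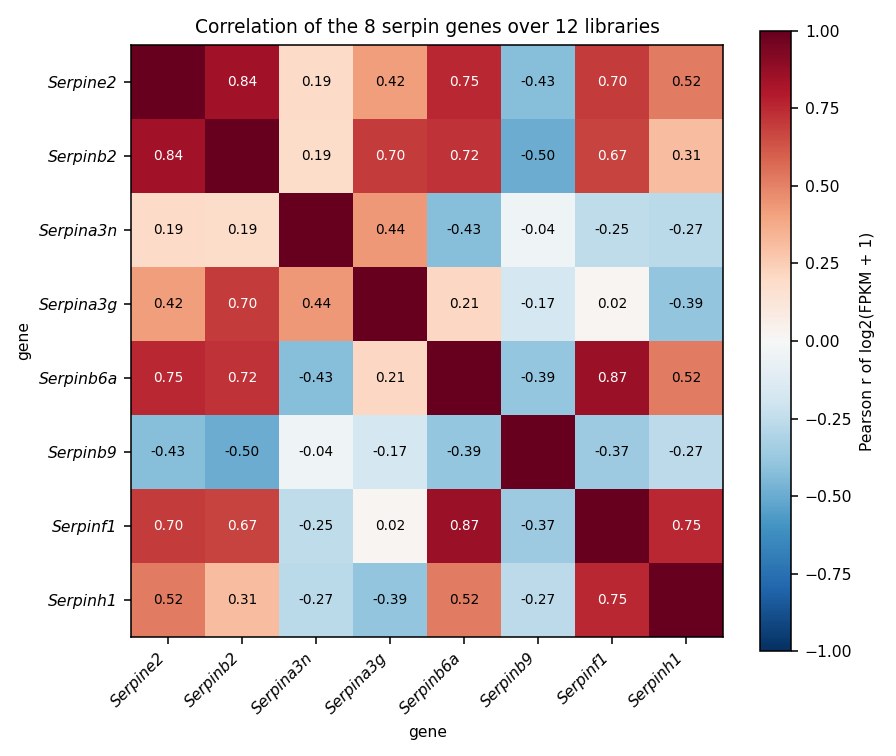
Pearson correlation of log2(FPKM + 1) between the 8 serpin genes over the 12 libraries, which form 6 groups of 2. The highest value is that of Serpinb6a with Serpinf1 (0.87) and the lowest that of Serpinb2 with Serpinb9 (-0.50).

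The 12 libraries fall into 6 groups of mixed cell makeup and are not 12 independent points, so correlations over them are descriptions. Serpinb6a and Serpinf1 were most alike (r = 0.865), followed by Serpinb2 and Serpine2 (0.841), the inhibitors of plasminogen activators. Neighbours were sought among tested genes outside the 8 that reached a group mean of 5 FPKM and had no predicted name (Gm or Rik). Of these, the gene most like Serpina3g was Nfkbiz, an NF-kB cofactor (0.984), followed by the chemokine Cxcl1 (0.983) and Rapgef5 (0.977). For Serpinb2 they were the cytokine Lif (0.980), the growth factor Ereg (0.978) and Scube3 (0.977). For Serpine2 they were Smtn (0.976), Esm1 (0.968) and Inhba (0.968), and for Serpinh1 the collagen Col5a2 (0.951), the disulfide isomerase Pdia5 (0.941) and Gpr153 (0.941). Serpina3n was closest to Zdhhc20 (0.967), Tmed5 (0.962) and Eea1 (0.960). Serpinb6a was closest to Thyn1 (0.991), Pes1 (0.990) and Prelid1 (0.983), and Serpinf1 to Eef1e1 (0.986), Cdk7 (0.982) and Golt1b (0.981). Serpinb9, which varied least, had none of the genes searched above Tmlhe (0.857).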

How the data were processed

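Total RNA was extracted with TRIzol and made into standard Illumina libraries, per the labels' protocols, with mm10 as the build. The labels do not state an aligner, a counter or an annotation release. For each gene, the authors deposited FPKM and gene length. Reads were recovered from FPKM times length, since 100% of values came out whole to within 0.1 read. Genes reaching 1 FPKM in 2 or more libraries were tested as log2(FPKM + 1) with limma 3.58.1 (R 4.3.3): 1 mean per group, all 12 libraries in 1 fit with 6 residual degrees of freedom, intensity trend, two-sided, Benjamini-Hochberg over 14014 genes at 0.05. The test was tried on simulated data. Ratios of pooled reads have exact 95% binomial intervals. Of each list, up to 4 called genes per comparison were named by p. For each of the 8 the 3 most correlated genes were named, among genes with a group mean of at least 5 FPKM and no predicted name. The 8 genes and all lists were chosen with earlier results of these data known. The detection limit of 3 reads is 0.145 to 0.191 FPKM for a gene 1 kb long (counting error only). Alternatives were pseudocounts of 0.1 and 0.5, no filter, 5 FPKM, scaling to total reads, quantile normalization, the replicate number as block, 4 libraries alone, voom on the reads, and leaving out each library; a crossed block was added after seeing the data. Promoters are RefSeq's (GRCm38.p6), all 8 matched.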

Additional observations from a re-analysis of the deposited data

Results flagged for a closer look

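For 9 gene and experiment pairs the effect differed between 2 experiments by a test of the difference itself (limma, adjusted p under 0.05, log2(FPKM + 1) scale, 2 libraries per group). Serpinf1 differed by 2.71 between the Ogt cKO and the AD model and by 4.22 between the Ogt cKO and Aβ. Serpinb6a differed by 2.01 and Serpina3n by -1.67 between the Ogt cKO and Aβ. These 4 were called without each library in turn, with an adjusted p of at most 0.0355, 0.00342, 0.0158 and 0.0445.

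The calls for the other 5 were less stable, each lost when some single libraries were left out. Serpinb6a differed by 1.37 and Serpinh1 by 1.47 between the Ogt cKO and the AD model, and each call was lost without any 1 of 10 libraries, all but AD control replicate 2 and AD model replicate 1 (adjusted p up to 0.117 and 0.133). Between the Ogt cKO and Aβ, Serpinh1 differed by 1.45 and lost its call without any 1 of the 4 libraries of the Ogt experiment, Aβ control replicate 1 or Aβ-treated replicate 1 (up to 0.094). Quantile normalization took the 2 Serpinh1 differences to 0.80 (Ogt cKO and AD model, adjusted p = 0.147) and 0.64 (Ogt cKO and Aβ, 0.18). Serpina3g differed by -0.87 there, which became -0.58 without Aβ-treated replicate 2; its call was lost without that library, any of the 4 of the Ogt experiment or Aβ control replicate 1 (up to 0.0931). It was -0.23 with 0.1 added to the FPKM (adjusted p = 0.80), -0.84 with 0.5 added (0.081), -0.71 with quantile normalization (0.065) and kept at -0.87 but not called with no filter (0.072). The sign of that difference turned with voom on the reads (1.30, adjusted p = 0.43), where a change against 2 control reads is not damped by the added 1. Serpina3n differed by -1.79 between the AD model and Aβ, a call lost without any 1 of 10 libraries, all but AD model replicate 2 and Aβ-treated replicate 2 (up to 0.122).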

How the results depend on the processing

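Of the 8 genes, 5 were called in the Ogt cKO, and leaving out each library gave 4 to 5. In the AD model 1 was called, against 0 with a filter at 5 FPKM (Serpina3g is below it and has no value there), 2 with a replicate block and 1 to 2 without each library. After Aβ 3 were called, against 5 with the replicate block, 6 with the 4 libraries alone and 2 to 5 without each library. The difference between Ogt cKO and AD model had 3 calls, against 1 with no filter, 1 with quantile normalization, 5 with the replicate block and 1 to 5 without each library. That between Ogt cKO and Aβ had 5, against 3 with no filter, 3 with quantile normalization and 3 to 6 without each library, and that between AD model and Aβ had 1, against 0, 2 with the replicate block and 0 to 2. The cause of these changes in the counts was not tested. Leaving out a library also leaves fewer samples, and dropping the filter puts more genes in the fit.

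Same-numbered replicates correlated in their deviations from group means at 0.0332 (Ogt cKO), 0.551 (AD) and -0.169 (Aβ) with only 2 pairs each, so the numbers are not taken to pair samples. The crossed replicate block for Aβ, added after seeing the data, gave 5 calls. With the replicate block Serpinh1 was called in all 3 experiments (0.68, -0.79 and -0.76, adjusted p = 0.030, 0.035 and 0.023). Serpine2 in the Ogt cKO lost its call with no filter (adjusted p = 0.062). Differences of effects that changed sign were Serpina3n (-0.14 rescaled to total reads, -0.0496 with quantile normalization) and Serpinb9 (-0.12 rescaled) between Ogt cKO and AD model, and Serpina3g with voom (0.84, 1.30 and 0.46 for Ogt cKO with AD, Ogt cKO with Aβ and AD with Aβ).

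Leaving out 1 library turned the sign of changes that were not called. In the Ogt cKO Serpinb9 ranged from -0.12 to 0.0646 and after Aβ from -0.0012 to 0.29. In the AD model Serpina3n ranged from -0.0171 to 0.42, Serpinb2 from -0.19 to 3.90, Serpinb6a from -0.32 to 0.49, Serpinb9 from -0.54 to 0.24, Serpine2 from -0.75 to 0.24 and Serpinf1 from -0.75 to 0.40. Between Ogt cKO and AD model Serpina3n ranged from -0.16 to 0.39 and Serpinb9 from -0.27 to 0.52, and between AD model and Aβ Serpinb2 from -1.45 to 2.64, Serpinb9 from -0.69 to 0.10 and Serpinh1 from -0.44 to 0.39. A lone library left in a group is assumed to vary like the other groups.

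Rescaling to total reads shifted the median of all genes in the Ogt cKO by -0.19 and the proportion of calls in the upward direction from 53.3% to 35.3%; quantile normalization moved that proportion after Aβ from 58.0% to 47.4%. Serpinh1 in the Ogt cKO was 0.10 under quantile normalization. With the 4 libraries alone, the AD comparison called 278 of all genes in place of 2392, and without 1 library of the Ogt experiment its 5934 calls became 1829 to 3165.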
